A study of Mus musculus with 8 samples.

Results

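Smad4 regions inside long genes were the subject: places where both wild-type (WT) libraries had a chromatin immunoprecipitation (ChIP-seq) peak, neither Smad4 knockout (KO) library had one, and the centre lay within an autosomal protein-coding gene of at least 100 kb. WT peaks sharing 1 bp or more formed one region. Of 16501 regions with a peak of both WT lists, 15882 met no KO peak (96.2%), and 2655 of these, 16.7%, had their centre inside such a gene and over 1 kb from every coding gene end. They lay in 823 genes, called host genes here, out of 2312 autosomal coding genes of that length (35.6%). Inside long genes, 2797 regions had peaks in both WT lists, and 2655 of them met no KO peak (94.9%), a share that the choice of regions fixes. The regions were chosen by the peak calls of all 4 libraries, so counts of them are descriptions and are not tested.

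The cells were CD4+ T cells of C57BL/6 mice, taken from spleen and lymph nodes, activated, and collected 12 h after treatment with IL6 and a TGFbR inhibitor. WT cells made up 2 libraries, both labelled female. The 2 KO libraries carried CD4cre;Smad4fl/fl, in which Cre driven by the Cd4 gene's regulatory elements deletes a floxed Smad4 in the T lineage; the label of KO replicate 1 gives pooled sexes and that of KO replicate 2 gives male. The age, the completeness of deletion and whether replicates were separate animals are not stated in the labels. The permutation test of library shares therefore compares only these samples, and sex and genotype cannot be told apart. Read depth per library was unknown, and 4 input samples were not analysed here.

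Smad4 is the shared partner of the receptor-activated SMAD proteins. SMAD complexes contact short DNA elements of low specificity and are usually recruited beside factors that mark a cell type, such as ETS, RUNX and AP-1 proteins in T cells. Long genes owe their length to introns, which can hold enhancers and alternative transcript starts of the gene itself, and sometimes a whole second gene.

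Some of the widest regions covered a second transcript start of the gene. RefSeq lists 1011 starts that lay over 1 kb from every coding gene end, in 689 of the 1772 long genes for which start sequences were at hand. A WT-only region centre lay within 1 kb of 165 of these inner starts (16.3%; exact 95% Clopper-Pearson interval 14.1% to 18.7%), and 146 starts, in 126 genes, lay within a region. Read from the regions, 153 of 2117 (7.23%; interval 6.16% to 8.41%) lay within 1 kb of an inner start of their host, while the stretches within 1 kb of such starts made up 0.414% of the length of those 1772 genes. Starts of long non-coding RNA genes lay within 1 kb of 48 of the 2117 regions, 17 of which were near an inner start as well. The share of gene length near those non-coding starts is not given here. The remaining 1933 regions (91.3%) lay near neither kind of start.

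The 250 bases before the inner start are shown for the 6 genes whose overlapping region had the largest summed WT peak width, because these sequences are the ones that the widest start-covering regions held. Where a region covered more than 1 start, as in Gse1, the start closest to the annotated gene start is shown. They are RefSeq sequences on GRCm38.p6, written 5′ to 3′ on the strand of the gene. Capitals mark SMAD-type letters, CAGAC or GGCGC and their reverse complements GTCTG and GCGCC, on either strand and with overlaps counted.
Gse1: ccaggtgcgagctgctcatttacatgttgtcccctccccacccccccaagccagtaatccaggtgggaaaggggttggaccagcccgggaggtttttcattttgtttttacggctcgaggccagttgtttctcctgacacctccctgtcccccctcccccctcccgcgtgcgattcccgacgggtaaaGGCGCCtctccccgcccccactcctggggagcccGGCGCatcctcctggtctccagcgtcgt
Lef1: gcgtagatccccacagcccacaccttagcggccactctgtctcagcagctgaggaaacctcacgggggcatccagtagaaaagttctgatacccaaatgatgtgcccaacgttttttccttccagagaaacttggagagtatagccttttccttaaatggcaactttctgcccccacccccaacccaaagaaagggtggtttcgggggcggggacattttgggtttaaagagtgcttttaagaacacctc
Arhgef3: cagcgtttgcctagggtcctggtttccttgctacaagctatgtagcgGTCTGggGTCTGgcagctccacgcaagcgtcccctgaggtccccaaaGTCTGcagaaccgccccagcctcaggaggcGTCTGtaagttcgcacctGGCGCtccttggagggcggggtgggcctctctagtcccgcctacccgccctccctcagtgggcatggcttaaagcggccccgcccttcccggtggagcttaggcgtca
Nup210: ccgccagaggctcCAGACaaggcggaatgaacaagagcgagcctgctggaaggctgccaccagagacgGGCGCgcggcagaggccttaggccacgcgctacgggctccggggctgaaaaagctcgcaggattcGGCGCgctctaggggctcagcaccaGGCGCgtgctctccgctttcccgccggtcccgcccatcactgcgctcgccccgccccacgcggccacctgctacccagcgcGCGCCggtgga
Pde4b: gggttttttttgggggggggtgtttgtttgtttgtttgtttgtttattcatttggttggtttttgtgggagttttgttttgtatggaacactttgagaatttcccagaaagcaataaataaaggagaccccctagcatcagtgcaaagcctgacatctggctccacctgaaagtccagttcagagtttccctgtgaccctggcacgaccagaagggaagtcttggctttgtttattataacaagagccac
Runx1: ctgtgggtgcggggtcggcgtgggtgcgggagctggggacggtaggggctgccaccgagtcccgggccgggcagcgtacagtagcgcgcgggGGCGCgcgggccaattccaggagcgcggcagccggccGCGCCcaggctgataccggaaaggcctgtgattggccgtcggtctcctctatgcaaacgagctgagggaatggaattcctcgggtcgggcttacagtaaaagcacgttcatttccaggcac

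The Gse1 window (chr8:120535607-120535856, plus strand) lay before a start 307 kb into the gene, which encodes a protein of co-repressor complexes. The region over it was covered for 4016 bp by 1 peak of WT replicate 1 and for 3014 bp in all by 3 peaks of WT replicate 2. The same region covered a second start, 309 kb into the gene, whose window (chr8:120537159-120537408) had a GC content of 74.8% with 1 CAGAC match and 2 GGCGC matches. The Lef1 window (chr3:131112541-131112790, plus strand) lay close to the annotated gene start, 2.49 kb in. The Lef1 region (131109876 to 131113932) also covered that annotated start, at 131110297. Lef1 encodes an HMG-box factor of T cell development, and its region was covered for 2982 bp by 1 peak of WT replicate 1 and for 3994 bp in all by 2 peaks of WT replicate 2. In Arhgef3, which encodes a guanine nucleotide exchange factor, the window (chr14:27335787-27336036, plus strand) lay 222 kb into the gene, under 1 peak of 3214 bp in WT replicate 1 and 2 peaks that summed to 2354 bp in WT replicate 2. The nucleoporin gene Nup210 had its window 1.496 kb in (chr6:91116827-91117076, minus strand), under peaks of 2738 and 2748 bp.

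Deep starts also carried the regions of Pde4b and Runx1. Pde4b, a cAMP phosphodiesterase gene, had a start 483 kb into its 519.9 kb (chr4:102569810-102570059, plus strand), with WT peaks 2760 and 2694 bp wide. Runx1, a Runt-domain factor gene with a distal and a proximal promoter, had a start 129 kb in (chr16:92697330-92697579, minus strand), with peaks of 2846 and 2596 bp. The 6 windows differed in base composition. GC content was 43.2% in Pde4b and 50.8% in Lef1, which held no SMAD-type letters, and 71.2% in Nup210, which held 4 GGCGC matches and 1 CAGAC match. Arhgef3 held 4 CAGAC matches and 1 GGCGC match, the Gse1 window shown held 3 GGCGC matches and Runx1 held 2.

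Among all 146 inner starts within a region, the 250-base windows had a median GC content of 67.2% and a median of 21 CG dinucleotides. The 846 inner starts with no region centre within 1 kb had medians of 50.8% and 5, and all 32851 RefSeq windows had medians of 52.4% and 6. A start within a wide region but over 1 kb from its centre, as in Gse1, falls in both sets. The letters GGCGC, on either strand, were in 68.5% of the windows within a region (interval 60.3% to 75.9%). They were in 26.4% of those with no region centre within 1 kb and in 32.0% of all windows, so their share moved together with GC content. CAGAC was in 32.9%, 39.4% and 42.2% of these windows. The AP-1 letters TGANTCA were in 3.42%, 7.21% and 6.75%, the RUNX letters TGTGGT in 6.85%, 13.6% and 14.0%, and the ETS letters GGAAGT in 18.5%, 14.5% and 19.7%. Both strands were searched. Some windows of the same gene overlapped, as in Eif4g3, where they began at 137993205 and 137993206 on chromosome 4. The interval counts such windows as separate. Base composition differed between these sets of windows, and its part in the motif shares was not tested.

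Regions near an inner start of their host were wider. Their median peak width was 776 bp in WT replicate 1 and 674 bp in WT replicate 2, against 536 and 434 bp in the regions near neither kind of start. Both libraries showed the same order. Regions near an inner start also lay closer to a coding gene end, at a median of 12.7 kb against 46.0 kb. The part of this distance in the widths was not tested. These widths belong to the peaks that chose the regions and are given without a test.

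The 2655 regions together covered 1.96 Mb. Most were simple: 2574 (96.9%) held 1 peak in each WT list. Median peak width was 558 bp in WT replicate 1 and 440 bp in WT replicate 2, and 1907 regions (71.8%) were wider in WT replicate 1. The smallest width a list held, 240 bp in WT replicate 1 and 242 bp in WT replicate 2, was that of 6.52% and 16.1% of the regions. Autosomal WT-only regions inside genes under 100 kb (3335 regions) had medians of 562 and 450 bp, and those outside genes (4384 regions) had 550 and 436 bp. The 5261 regions at gene ends had 666 and 588 bp, the widest medians of the 4 location classes in both libraries. Across the 2655 regions the widths of the WT replicates had a Spearman correlation of 0.710, a description over regions that share libraries.

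About as many WT regions inside long genes rested on a single library as on both. Of 5466 merged WT regions inside long genes, 2196 had a peak in WT replicate 1 alone and 473 in WT replicate 2 alone. The 142 regions with peaks of both WT lists that also met a KO peak were left out; 101 met a peak of KO replicate 1, 95 a peak of KO replicate 2, and 54 met both.

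Inpp4b, which encodes a lipid phosphatase of the phosphoinositide pathway, held the widest inner region by summed WT peak width (chromosome 8, 81765190 to 81770301). Its peaks summed to 4770 bp in WT replicate 1 and 3790 bp in WT replicate 2, and it lay 425 kb from the start of the gene and 367 kb from the closest coding gene end. The transcription factor genes Nr3c1, the glucocorticoid receptor (chromosome 18, 39488773 to 39492408), and Ets1 (chromosome 9, 32699390 to 32702906) also held one of the 10 widest. Nr3c1 had 1 peak in each library, of 3636 and 3460 bp, while at Ets1 2 peaks of WT replicate 1 summed to 3120 bp and 4 of WT replicate 2 to 2596 bp. These regions lay 28.8 and 56.7 kb from the closest coding gene end. The others of the 10 lay in Gse1 and Lef1, described above, and close to a gene end. Zfp827 (2.07 kb from the end), Rasa3 (1.53 kb), Fam53b (1.67 kb), Zeb1 (1.36 kb) and Arid1b (1.11 kb) each held a region that its centre put just inside the gene. The regions of Rasa3, Fam53b, Zeb1 and Arid1b crossed that gene end, as did the Lef1 region, while the Zfp827 region did not.

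Foxp1, a forkhead factor gene that keeps naive T cells quiescent, held the most inner regions of any host gene, 38 along 597 kb (chromosome 6, 98925342 to 99522746). WT replicates 1 and 2 had 72 and 49 peaks inside it, and KO replicates 1 and 2 had 4 and 5. Peak counts given for a gene here and below include all peaks centred inside it, not only those that formed the counted regions. Bach2, which encodes a repressor that competes with AP-1 factors, followed with 32 regions along 348 kb (chromosome 4, 32238413 to 32586109). Inside it lay 57 and 42 WT peaks, and 3 peaks in each KO library. Inpp4b held 30 regions along 792 kb (chromosome 8, 81342266 to 82134312). It had 43 and 41 WT peaks inside, and 2 peaks in each KO library. These genes were picked by their WT-only regions and the KO lists were far shorter (552 and 417 autosomal peaks against 26698 and 19450 in WT), so nothing is read from WT counts above KO counts here.

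Shorter hosts had the highest densities. Prkch, the gene of protein kinase C eta, held 23 regions (11.9 per 100 kb, chromosome 12, 73584796 to 73778185). It had 37 and 24 WT peaks and no KO peak inside. Ets1, a lymphocyte transcription factor gene, held 22 regions in 122 kb (chromosome 9, 32636241 to 32757820). It had 34 and 28 WT peaks and no KO peak inside. Its 18.1 regions per 100 kb were the most of all host genes with at least 3 regions, and 15 of them fell within 50 kb. Jak1, the gene of a kinase of cytokine receptors, held 13 regions (11.5 per 100 kb; chromosome 4, 101151974 to 101265282), with 18 and 15 WT peaks. Ptprc, which encodes the phosphatase CD45, held 12 (10.6 per 100 kb; chromosome 1, 138062859 to 138175756), with 16 and 12 WT peaks. Neither of the last 2 had a KO peak. St6gal1, a sialyltransferase gene, held 13 regions (9.59 per 100 kb), with 24 and 16 WT peaks, none in the first KO library and 1 in the second.

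**Figure D1:**
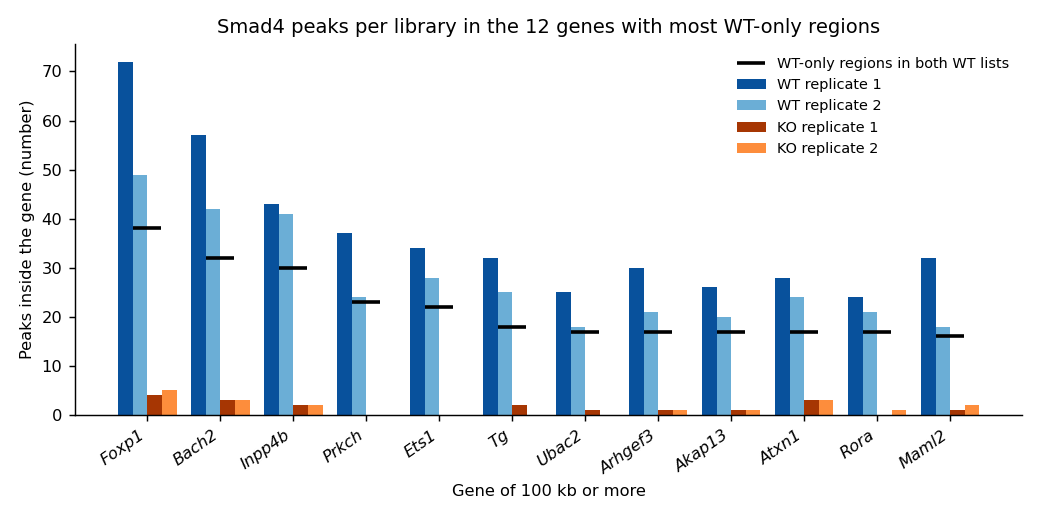
Number of Smad4 peaks (vertical axis) with their centre inside each of the 12 long genes with the most WT-only regions (horizontal axis), as bars per library, with a black dash for the number of WT-only regions. WT bars run from 18 to 72 peaks and KO bars from 0 to 5.

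The next host genes by count were similar to each other. Arhgef3 held 17 regions, with 30 and 21 WT peaks inside it. Akap13, which encodes an anchor of protein kinase A, held 17, with 26 and 20 WT peaks. Atxn1, the gene of the transcriptional regulator ataxin-1, held 17, with 28 and 24 WT peaks. Rora, a nuclear receptor gene of Th17 cells, held 17, with 24 and 21. Maml2, a Notch co-activator gene, held 16, with 32 and 18. KO peaks in these 5 genes ranged from 0 to 3 per library, and Atxn1 had 3 in each.

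Tg and Ubac2, among the 12 genes with the most regions, each hold at least 1 smaller coding gene within their bounds. Tg encodes thyroglobulin, a product of the thyroid, and had 32 and 25 WT peaks and 2 and 0 KO peaks inside. It held 18 regions (chromosome 15, 66670754 to 66850721). Of these, 11 had their centre inside Sla (66780819 to 66831829), which encodes an adaptor that dampens T cell receptor signalling, and 13 lay inside it or within 20 kb. Ubac2, which encodes a protein of the endoplasmic reticulum, had 25 and 18 WT peaks and 1 and 0 KO peaks inside. It held 17 regions (chromosome 14, 121878559 to 122021035). Of these, 7 lay inside or within 20 kb of the nested receptor gene Gpr183 (121952331 to 121965193), 3 of them inside it. Gpr18 (121911434 to 121915888), another receptor gene nested there, also had 7 within 20 kb and none inside.

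Nested genes were the exception among hosts. Of the 2312 long genes, 202 held a whole coding gene within their bounds, and 64 of these were hosts (31.7%; interval 25.3% to 38.6%), with 191 regions. Of the 2110 long genes without a nested coding gene, 759 were hosts (36.0%; interval 33.9% to 38.1%). Beyond Tg and Ubac2, 3 of the 4 regions in the cadherin gene Cdh23 lay inside Vsir, the gene of the T cell inhibitory receptor VISTA. In Med12l, 3 of the 4 regions lay within 20 kb of the receptor gene Gpr171 and none inside it, while 2 lay inside P2ry14, also nested there. In Cmss1, 4 of the 5 regions lay inside the nested gene Filip1l. Cdh23, Med12l and Cmss1 were chosen after their values were seen.

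**Figure D2:**
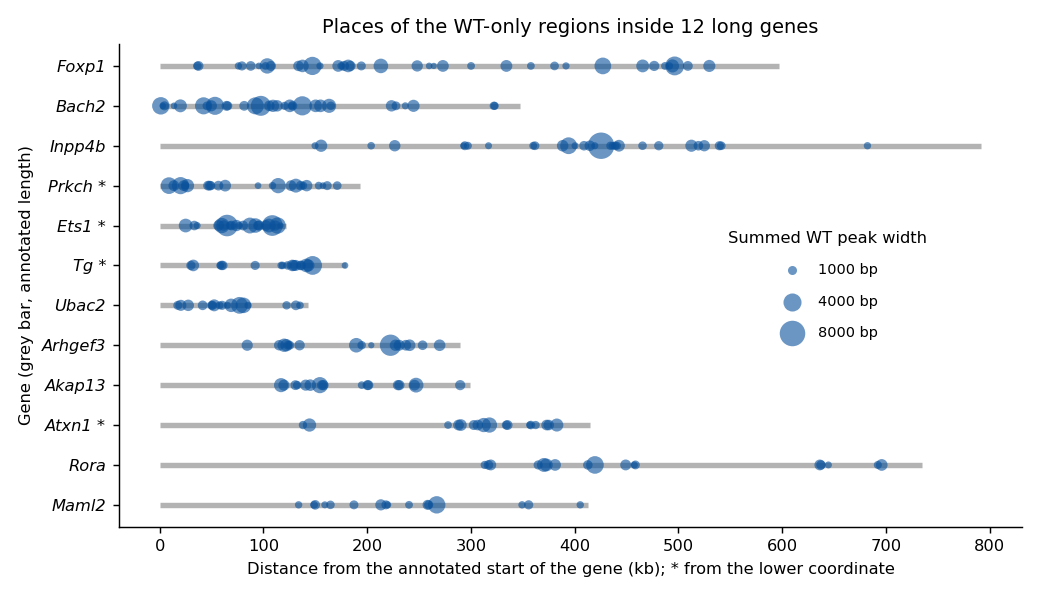
Places of the WT-only regions (dots, area in proportion to summed WT peak width) along each of the 12 genes with the most regions (grey bars, annotated length), against distance in kb from the annotated start, or from the lower coordinate for genes marked with an asterisk, whose strand was not taken from the start table. The widest dot is the Inpp4b region at 425 kb, and the Ets1 regions span 91.5 kb.

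The distance between neighbouring regions was measured within hosts. Among 1832 pairs of neighbours in one host, the median distance between centres was 11.05 kb; 583 pairs (31.8%) lay within 5 kb and 866 (47.3%) within 10 kb. In Bach2 the median step was 5.29 kb and 10 regions fell within 50 kb, in Foxp1 it was 9.59 kb with at most 8 within 50 kb, and in Ptprc 11 of 12 regions fell within 50 kb. More regions in a host shorten these steps by arithmetic, and no other placement was compared. The 823 hosts were unequal: 334 held a single region and 163 held 2, while the 51 genes with 10 or more, 6.20% of the hosts, held 711 regions (26.8%). The 141 genes with the most regions together held 50% of them.

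Gene length and a region at the gene's own end moved with the presence of inner regions. Of the long genes of 100 to 150 kb, 36.4% were hosts (335 of 921; interval 33.3% to 39.6%), and of those of 200 to 400 kb 37.4% (227 of 607; 33.5% to 41.4%). The share was 31.4% from 400 to 800 kb (77 of 245; 25.7% to 37.6%) and 14.0% at 800 kb or more (13 of 93; 7.66% to 22.7%). Density fell with length, from 7.92 regions per Mb at 100 to 150 kb to 0.485 per Mb at 800 kb or more. Among shorter autosomal coding genes, 2137 of 18248 (11.7%) held a WT-only region that far from every gene end. Their bodies leave less room for one, and the part of length in this share was not tested.

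A gene end counted as having a WT-only region only if the region's centre lay within 1 kb of it. Regions that crossed an end with their centre farther off, as in Lef1, Rasa3, Fam53b, Zeb1 and Arid1b, were not counted. Long genes with such an end region were hosts in 57.3% of cases (341 of 595, interval 53.2% to 61.3%). Those without one were hosts in 28.1% (482 of 1717, 26.0% to 30.3%). The shares were 47.6% against 30.7% at 100 to 150 kb, 70.1% against 28.1% at 200 to 400 kb, and 81.5% (22 of 27) against 25.2% (55 of 218) at 400 to 800 kb. In the other direction, 341 of the 823 hosts (41.4%; interval 38.0% to 44.9%) had such an end region. Where the strand was known, the region was at the annotated start in 38.7% of hosts (259 of 669) and at the far end in 2.09% (14 of 669). In 294 of these 669 hosts (43.9%, interval 40.1% to 47.8%) no WT-only region had its centre within 1 kb of the annotated start or of an inner start. RefSeq bounds include predicted transcripts, so the annotated start is not always the start used in T cells.

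**Figure D3:**
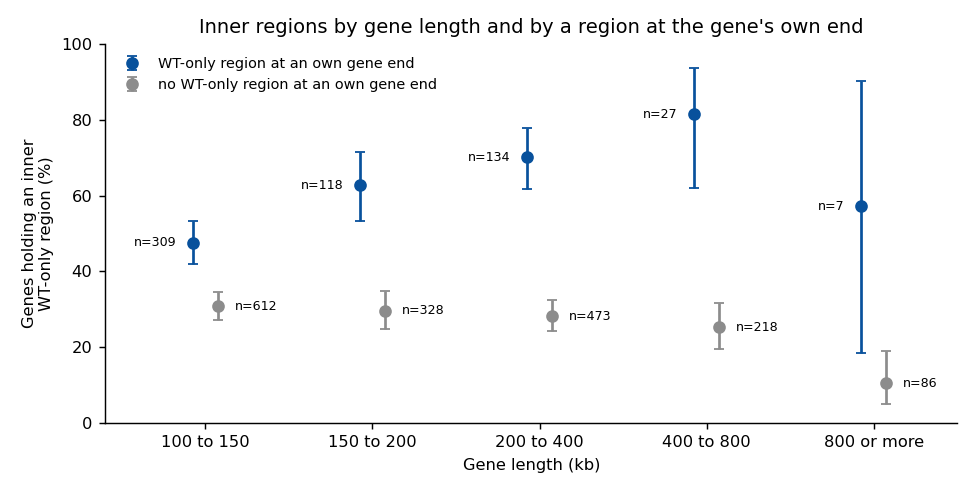
Share of autosomal coding genes of 100 kb or more that held an inner WT-only region (vertical axis, %), by gene length (horizontal axis, kb). Genes are split by whether the centre of a WT-only region lay within 1 kb of the gene's own end. Exact 95% binomial intervals cover counting error only. The intervals do not overlap in the 4 classes up to 800 kb and overlap in the longest class.

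Regions leaned towards the start of the gene. Among 2117 regions in hosts of known strand, 26.4% (interval 24.5% to 28.3%) lay in the first 20% of the gene's length along transcription and 15.97% (14.4% to 17.6%) in the last. Density in all long genes of known strand was 19.8 regions per Mb from 1 to 5 kb after the start, 9.26 per Mb from 5 to 10 kb and 3.16 per Mb beyond 100 kb. The lean was weaker in longer hosts: the first 20% of the length held 30.03% of the regions in hosts of 100 to 150 kb (200 of 666) and 20.9% in hosts of 400 to 800 kb (58 of 278; interval 16.2% to 26.1%). In hosts of 800 kb or more, 10 of 41 lay in that first stretch and 19 of 41 in the last. Inside genes under 100 kb the first 20% of the length held 33.0% (882 of 2676; interval 31.2% to 34.8%) and the last 9.60%. With centres over 5 kb from every coding gene end, the first 20% of the length of long genes held 21.6%. That limit leaves less room in the first and last stretches, so 21.6% is not compared with 26.4%. Despite the lean in the full set, most regions were far from any gene end, at a median distance of 42.5 kb. The 10th and 90th percentiles were 5.82 kb and 125 kb.

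**Figure D4:**
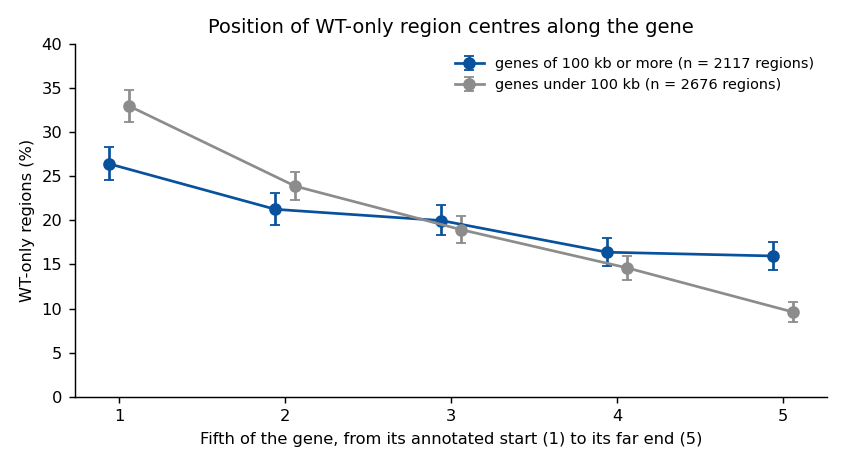
Share of WT-only regions (vertical axis, %) in each of 5 equal stretches of the gene from its annotated start to its far end (horizontal axis), for genes of at least 100 kb and for shorter genes, with exact 95% binomial intervals. Both series fall from the first stretch, 26.4% and 33.0%, to the last, 15.97% and 9.60%.

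The most remote regions lay in Fhit, a gene at a common fragile site that spans 1612 kb (chromosome 14, 9550092 to 11162061). It held 3 regions, 702 to 766 kb from the closest coding gene end, with peaks of 374 to 448 bp in WT replicate 1 and 242 to 316 bp in WT replicate 2. All 3 were narrow, and 2 of them were at the smallest width of WT replicate 2. Only 13 genes of 800 kb or more were hosts, among them Celf2, which encodes an RNA-binding protein, with 11 regions, Sox5 with 10 and Wwox with 10. WT replicates 1 and 2 had 21 and 13 peaks inside Celf2, 16 and 12 inside Sox5 and 18 and 12 inside Wwox, and KO replicates 1 and 2 had peaks inside Wwox alone of these, 2 and 1. Celf2 and Sox5 were named after their values were seen. The 5 longest genes, Ptprd, Cntnap2, Lsamp, Lrp1b and Macrod2, held no peak inside in any of the 4 libraries.

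Transcription factor genes of T cells were hosts throughout. All 29 long genes of the list of 48 held an inner region, with a median of 6 regions, against 35.6% and a median of 0 over all 2312 long genes. This list and those below were chosen with earlier results of these data known, so their shares are descriptions and were not tested. Besides Foxp1, Bach2, Ets1 and Rora, the list includes Runx1 with 9 regions and Lef1 with 10. Runx1 held 17 and 12 WT peaks and 0 and 2 KO peaks, and Lef1 held 20 and 13 WT peaks and no KO peak. A KO library had a peak inside 12 of the 29, against 130 of the 2312. Of the T cell receptor signalling list, 22 of 23 long genes were hosts, with a median of 5 regions. Cblb, which encodes an E3 ligase that restrains T cell activation, held 13 regions, with 17 and 16 WT peaks and no KO peak inside it. The exception was Vav2, an exchange factor gene, with 2 peaks in WT replicate 1 and none in the other libraries. KO peaks lay inside 7 of these 23 genes.

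Chromatin regulators were hosts in 23 of 27 cases, led by the deacetylase gene Hdac4 with 14 regions, the remodeller gene Chd7 with 11, Arid1b of the BAF complex with 8 and the DNA methyltransferase gene Dnmt3a with 6. WT replicates 1 and 2 had 16 and 16 peaks inside Hdac4 and 18 and 13 inside Chd7, where KO replicate 2 had 1 peak each. They had 13 and 10 inside Arid1b and 7 and 6 inside Dnmt3a, where no KO library had one. Hdac9, Chd6, Crebbp and Smarcc1 held none; Chd6, Crebbp and Smarcc1 had a WT-only region at their start.

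TGF-β and SMAD signalling genes were closer to the background. Of 12 long genes, 5 were hosts (41.7%; interval 15.2% to 72.3%), and the median was 0 regions. Smad3, whose product is a receptor-activated partner of Smad4, held 7 regions within 44.3 kb (chromosome 9, 63646766 to 63757994). It had 16 and 8 WT peaks inside, and 1 peak in each KO library. Tgfbr3, the betaglycan co-receptor gene, held 5, with 9 and 6 WT peaks inside it. Wwp2, a ubiquitin ligase gene, and Sptbn1, a spectrin gene, held 3 each. Wwp2 had 4 and 3 WT peaks inside, and Sptbn1 had 3 and 3. No KO library had a peak inside these last 3 genes. The receptor genes Acvr1 and Bmpr1b, the adaptor gene Zfyve9 and the latency protein gene Ltbp1 had no peak inside in any library. Of 4 long genes of cytokine receptors and JAK-STAT signalling, 2 were hosts, Jak1 and Stat4. Stat4, whose product acts below the interleukin 12 receptor, held 4 regions. It had 13 and 6 WT peaks inside, 2 peaks in the first KO library and none in the second. Lifr had no peak inside, and Pias1 had 1 peak, in WT replicate 1.

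**Figure D5:**
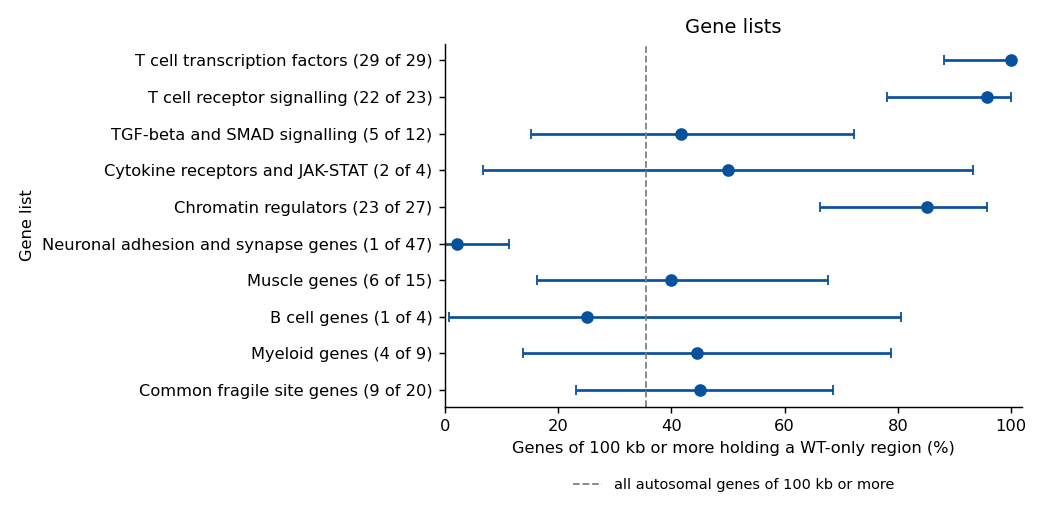
Share of the genes of at least 100 kb in each list shown that held an inner WT-only region (horizontal axis, %), with exact 95% binomial intervals; the dashed line is the 35.6% of all 2312 such genes. T cell transcription factors (29 of 29) sit farthest to the right and neuronal genes (1 of 47) farthest to the left. The lists were chosen with earlier results of these data known.

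Lists of other tissues differed among themselves. Of 47 long genes of neuronal adhesion and synapses, 1 was a host, the glutamate receptor gene Grm5, with a single region of 370 bp in WT replicate 1 and 242 bp in WT replicate 2. The list's genes are long, with a median of 1098 kb; among genes of at least 400 kb, 1 of 44 in this list and 89 of the other 294 were hosts. KO peaks lay inside 2 of the 47. Muscle genes were hosts in 6 of 15 cases, B cell genes in 1 of 4, myeloid genes in 4 of 9 and genes of common fragile sites in 9 of 20. Pde4d, a phosphodiesterase gene in the muscle list, held 8 regions, and Pax5, the B cell identity factor gene, held 1. Inside Pax5 lay 1 peak of WT replicate 1 and 2 of WT replicate 2. In the myeloid list F13a1 held 8 regions, and Frmd4b and Slc9a9 held 7 each. Ebf1, Mitf, Adgre1 and Cd36 had no peak inside in any library. Peaks do not measure expression, and other cells in the samples were not measured here.

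A larger share of KO peaks than of WT peaks lay inside long genes. Among autosomal peaks the share was 18.8% in WT replicate 1 (5015 of 26698), 17.2% in WT replicate 2 (3348 of 19450), 22.6% in KO replicate 1 (125 of 552) and 26.4% in KO replicate 2 (110 of 417). The groups did not overlap. The mean was 17.999% ± 1.11 in WT and 24.5% ± 2.64 in KO (SD, n = 2 each), a WT minus KO difference of -6.51 percentage points, with p = 0.333 in a 2-sided exact permutation test, the lowest value possible for 2 samples a group. The lists differed in length, read depth was unknown, and their part in this difference was not tested. Of the 235 KO peaks inside long genes, 196 (83.4%) met a region with peaks of both WT lists. All 235 KO peaks together lay in 130 genes, of which 108 were hosts, 13.1% of all hosts. Foxp1, Atxn1, Bach2, Smg6 and Lpp held the most, Lpp together with Etv6, which was named after its values were seen. Smg6, a gene of nonsense-mediated decay, had 3 peaks in each KO library and 5 and 6 in WT replicates 1 and 2, while Lpp had 3 and 2 KO peaks and 29 and 14 WT peaks.

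Host genes were found on every autosome, from 26.8% of the long genes of chromosome 18 to 47.5% of those of chromosome 13. Region centres inside genes of 95 to 100 kb, just under the length limit, numbered 114 in 51 of 150 genes, and those in genes of 100 to 105 kb numbered 109 in 55 of 136 genes. Vmp1 (99.98 kb, 8 regions) and Lcp1 (99.7 kb, 6 regions) fell just outside, and Inpp5d (100.2 kb, 5 regions) just inside. Within long genes, 24 WT-only regions had their centre 0.8 to 1 kb from a coding gene end and were left out, and 25 at 1 to 1.2 kb were kept; their median summed WT peak widths were 1838 and 1906 bp.

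Of the miRNA hairpins in the RefSeq table, 5 met one of the 2655 regions. They were Mir7655 in Mllt10, Mir491 in Focad, Mir7687 in Gse1, Mir8104 in Ppm1h and Mir1904 in Pde4d. The Mir7687 hairpin (chromosome 8, 120538696 to 120538754) lay in the wide Gse1 region described above. How many hairpins were searched is not given here, so nothing is read from the count of 5.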

How the data were processed

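Smad4 ChIP-seq peaks of 2 WT and 2 KO libraries were used. The authors deposited 1 list per library with the chromosome, start and end of each peak in bp, and no score, height or p-value. Per the submitters' processing notes, Trim Galore, Bowtie, HOMER 4.8.3 and the build mm10 were used, without stated roles; the sources used here do not give thresholds, the use of inputs or read depth. Positions are printed 1-based on mm10. Gene bounds came from RefSeq on GRCm38.p6, the same assembly: 21779 of 21900 coding genes were used, leaving out mitochondrial genes and, except on Y, those whose start is under 3 Mb, which carry scaffold coordinates. Strand and starts came from a RefSeq start table that held 1772 of the 2312 long genes, and none of chromosome 18.

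Regions were built and counted in Python 3.11.15 with pandas 2.3.3, SciPy 1.17.1 and numpy 2.4.6, tested on simulated intervals, and drawn with matplotlib 3.10.9. Peaks were assigned to the longest gene that held their centre. Shares carry exact 95% Clopper-Pearson intervals, which cover counting error only, since neighbouring regions are not independent. The planned GC and motif count of the regions themselves was replaced by that of start windows, as no genome sequence was used. Alternatives were other overlap, gene-end and length limits, wider peaks, a KO distance of 1 kb, each list left out, and pairing by replicate number.

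The regions, the 11 gene lists and the rule for named genes were chosen with earlier results of these data known. The rule took the 12 genes with the most regions, the 8 densest, hosts of the 10 widest regions, up to 4 hosts and 4 longest genes without a region per list, the 5 longest genes and the 5 with the most KO peaks. Some of its genes are counted without being named, and 1 list is not reported here.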

Additional observations from a re-analysis of the deposited data

How the results depend on the processing

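Other gene length limits changed the number of regions and host genes by construction: 4033 regions in 1505 genes at 50 kb or more, and 1224 regions in 317 genes at 200 kb or more. Leaving out each library in turn gave 2696 to 4859 regions and 826 to 1078 host genes; without WT replicate 2 the set rested on 1 WT list and held 4859 regions. The other alternatives gave 2116 to 2646 regions and 731 to 822 host genes. With centres over 5 kb from every coding gene end, 21.6% of regions lay in the first 20% of the host's length, a limit that leaves less room there. With a limit of 5 kb from region centre to gene end, 60.3% of hosts had a WT-only region at an own end. The median summed peak width of 1008 bp became 1004 bp with an overlap of 50% of both peaks and 1126 bp with peaks wider than the smallest width. The share of peaks inside long genes was lower in WT than in KO under every alternative run, and leaving out each library gave differences of -8.38 to -4.65 percentage points. With the replicate block, the pairs differed by -3.86 and -9.17 points (mean -6.51, exact sign-flip p = 0.5, the smallest that 2 pairs allow); nothing in the labels ties the numbers to shared animals. Unknown read depth limits all counts, since a deeper library can call more and wider peaks.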
